A study of Mus musculus with 6 samples.

Results

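Immediate early, AP-1 and NF-kB genes were followed in Tregs, the regulatory T cells of the mouse, which restrain other T cells and need the transcription factor Foxp3. The set was chosen by name: all 40 listed genes were found among the 55840 genes of the deposited table, and 39 of them had enough counts to be tested. The study compared 3 libraries of wild-type (WT) Tregs with 3 libraries labelled Exon2KO, from Tregs that carry the Foxp3∆2 allele named in the series title; the cells came from spleen and lymph nodes. Both genotypes are otherwise described alike, as Tregs. The labels call the libraries biological replicates, and strain, age, sex, sorting gate and the number of animals are not given in the sources used here. In the table a library is named for its genotype and for 2, 6 or 20, a number that 1 WT and 1 Exon2KO library share; these names, such as WT 20, are kept here.

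Immediate early genes are switched on within minutes of a signal, without new protein synthesis, because their activating factors already sit in the cell. In T cells the signal is usually engagement of the antigen receptor: the MAP kinase cascade induces Fos, Jun and Egr genes, and NF-kB, held in the cytoplasm by inhibitors, is set free. Many products feed back on the same pathways, such as the DUSP phosphatases on MAP kinases and Nfkbia and Tnfaip3 on NF-kB. The same genes also respond to stress and to the handling of tissue, so each was examined between genotypes, between the numbers, and between genotypes within a number.

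The 6 libraries held 17998216 to 21003496 counts each. Foxp3, the targeted gene, had 782, 601 and 749 CPM (depth-scaled counts, with libraries scaled by the TMM method) in WT against 825, 683 and 923 CPM in Exon2KO for numbers 2, 6 and 20; counts per gene cannot show the loss of an exon and so do not check the genotype. The Treg and T cell markers Foxp3, Il2ra, Ctla4, Ikzf2, Cd4, Cd3e, Cd3g and Trac were all detected, with a summed level of 3705.8 to 4371.7 CPM. Of these 8, Ctla4 (log2 -0.85), Ikzf2 (-0.66) and Il2ra (-0.52) were lower in Exon2KO with and without the block (edgeR adjusted p = 0.00677, 0.024 and 0.0429 without it). The list as a whole was divided: 4 genes were higher and 4 lower in Exon2KO without the block (median log2 0.003). At all 3 numbers, 3 genes were higher and 3 lower. Some markers of the cells themselves thus moved with genotype, and the part of this in the genotype differences below was not tested. B cell markers summed to 31.6 to 44.6 CPM and dendritic cell markers to 5.28 to 8.36 CPM. Libraries of the same number deviated together from their genotype's mean, with correlations across genes of 0.271, 0.369 and 0.494 for numbers 2, 6 and 20; genes are not independent replicates. Of the 14919 tested genes, 1559 (10.4%) differed between the numbers, and the genotype was therefore tested with and without the number as a replicate block. The counts cannot tell a change in the share of cells that express a gene from a change in RNA per cell.

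Levels within the set spanned more than 3 orders in CPM per kilobase of gene length, a scale on which genes can be compared. Junb, a subunit of the AP-1 dimer, had the highest mean, 795.97 CPM per kilobase over the 6 libraries, with single values from 622.26 to 1143.8. Nfkbia, which encodes the NF-kB inhibitor IkB-alpha, followed with a mean of 388 CPM per kilobase. Dusp2, a nuclear MAP kinase phosphatase, and Fos, the partner of the Jun proteins, had means of 230.1 and 229 CPM per kilobase. The next were Zfp36 and Ier2, with means of 165.7 and 165.6 CPM per kilobase; Zfp36 destabilises mRNAs that carry AU-rich elements. The lower end was formed by Fosl2 at 1.53, Ier3 at 1.41 and Atf3 at 0.505 CPM per kilobase. Atf3, a stress-induced partner of Jun proteins, had only 0 to 12 counts in the libraries numbered 2 and 6. Egr2 was listed at 0 in all 6 libraries, as was its neighbour Ado, so nothing is said of its level.

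**Figure D1:**
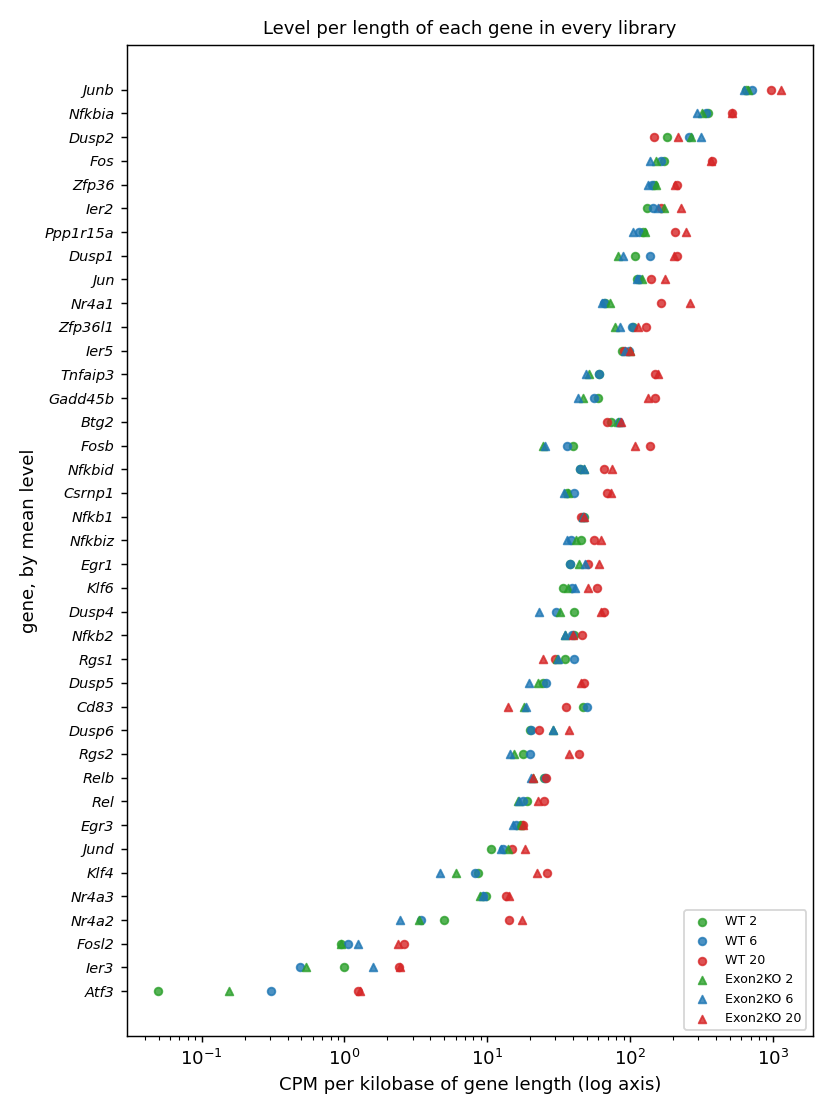
CPM per kilobase of gene length (horizontal log axis) of the 39 tested genes, ordered by mean; circles are WT and triangles Exon2KO libraries, coloured by number. For most genes the red symbols (number 20) lie to the right of the green and blue ones in both genotypes; the value of Atf3 in Exon2KO 6 was 0 and is not drawn.

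The main division within the set ran between the libraries numbered 20 and the others, in both genotypes. Genotype and number were the terms of an edgeR fit. Its adjusted p-values for the number, given below, tested any difference among 2, 6 and 20, not number 20 alone. In this fit, 30 of the 39 tested genes (76.9%) differed between the numbers, against 10.4% of all tested genes. Of these, 27 were higher in the libraries numbered 20 than in the mean of numbers 2 and 6, against a background of 5.99%, and 3 (Dusp2, Cd83 and Rgs1) were lower, against 4.46%. Both libraries numbered 20 lay above all other libraries for 29 of the 39 genes, against 12.9% of all tested genes, and below all others for 1, Rgs1, against 12.2%. The median difference of number 20 from the mean of 2 and 6 was 0.56 on the log2 scale over the set and 0.00 over all tested genes (0.002). Numbers 2 and 6 were close by comparison. The median absolute difference between them was 0.08 (0.078) over the set and 0.145 over all tested genes. The set was not matched for level with all tested genes, here or in the shares called throughout. When both libraries numbered 20 were left out, 1 gene of the 39, Dusp4, passed the edgeR test between numbers 2 and 6, against 1.43% of all tested genes.

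Of the 7 AP-1 genes, 5 were called for the number, and all 7 were above every other library in both libraries numbered 20. Fos had 405, 388 and 887 CPM in WT 2, 6 and 20, and 359, 321 and 873 CPM in Exon2KO 2, 6 and 20. It was 2.40-fold higher in number 20 (log2 difference 1.26, SE 0.07, edgeR adjusted p = 5.316e-08). Fosb, a close relative of Fos, had 251, 227 and 859 CPM in WT against 153, 159 and 674 CPM in Exon2KO libraries, in the same order. Its difference was the largest of the called genes but Nr4a2, at 3.94-fold (log2 1.98, SE 0.07, edgeR adjusted p = 5.313e-10). Fosl2 was 2.38-fold higher, whereas the Jun subunits moved less: Junb was 1.59-fold and Jun 1.37-fold higher in number 20. Junb itself had 1489.5, 1647.7 and 2243 CPM in WT against 1545.2, 1431.8 and 2631.9 CPM in Exon2KO libraries. Jund (adjusted p = 0.0716) and Atf3 (adjusted p = 0.0552) did not pass the edgeR test.

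The NR4A receptors, orphan nuclear receptors induced by antigen receptor signals, were all called. Nr4a1 had 232, 232 and 573 CPM in WT against 255, 224 and 921 CPM in Exon2KO libraries of numbers 2, 6 and 20. The number 20 libraries stood far above the rest, and more so in Exon2KO: the ratio to the geometric mean of numbers 2 and 6 was 2.47-fold in WT and 3.85-fold in Exon2KO. Nr4a2 showed 20.3, 13.9 and 57.8 CPM in WT against 13.4, 9.89 and 71.1 CPM in Exon2KO, ratios of 3.43-fold and 6.12-fold. Each ratio rests on 1 library numbered 20, and the difference between the ratios was not tested. Nr4a3 was 1.48-fold higher in number 20. Of the EGR factors, zinc-finger proteins downstream of ERK, Egr1 was called (1.33-fold, edgeR adjusted p = 0.00131) and Egr3 was not (log2 0.12, SE 0.07, adjusted p = 0.241).

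Feedback genes took part to different degrees. Among the phosphatases, Dusp1, Dusp4 and Dusp5 were 2.04-fold, 2.08-fold and 2.02-fold higher in number 20, Dusp6 was 1.22-fold higher, and Dusp2 was lower (log2 difference -0.48, 0.71-fold, edgeR adjusted p = 0.000354). Dusp4 also differed between numbers 2 and 6 (log2 -0.45, SE 0.09, number 6 lower). For Dusp2 the difference between numbers 2 and 6 was log2 0.36 (SE 0.09, number 6 higher). The Dusp2 values of the libraries numbered 20 overlapped those of the other libraries. Tnfaip3, which encodes the ubiquitin-editing NF-kB inhibitor A20, had 438, 441 and 1083.2 CPM in WT against 370.3, 352 and 1131.5 CPM in Exon2KO libraries. It was 2.79-fold higher in number 20 (log2 1.48, SE 0.08, edgeR adjusted p = 5.72e-08), with no overlap between these 2 libraries and the other 4. The other NF-kB inhibitors Nfkbia, Nfkbid and Nfkbiz were 1.59-fold, 1.52-fold and 1.47-fold higher.

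Of the 4 NF-kB subunits themselves, 1 was called for the number, against 10.4% of all tested genes. The difference from the rest of the set was not tested. Rel, the c-Rel subunit needed for Treg development, was 1.36-fold higher in number 20 (edgeR adjusted p = 0.000506). The other subunits did not pass: log2 differences were -0.03 for Nfkb1 (SE 0.07), 0.20 for Nfkb2 (SE 0.06) and 0.04 for Relb (SE 0.06). Of the remaining called genes, Klf4 (3.58-fold), Gadd45b (2.77-fold) and Rgs2 (2.41-fold) differed most; Gadd45b acts upstream of p38 and JNK, and Rgs2 and Rgs1 shorten signals of G-protein-coupled receptors. Gadd45b had 95.4, 89.0 and 238 CPM in WT against 74.1, 68.4 and 211 CPM in Exon2KO libraries. Rgs2 had 64.2, 72.6 and 159 CPM in WT against 55.6, 52.2 and 134 CPM in Exon2KO, and again both libraries numbered 20 were clear of the rest. Rgs1 went the other way, with 242, 280 and 207 CPM in WT against 213, 219 and 171 CPM in Exon2KO (0.79-fold, edgeR adjusted p = 0.00633). Csrnp1 and Ppp1r15a, the latter a subunit that directs a phosphatase to the translation factor eIF2-alpha, were 1.92-fold and 1.93-fold higher in number 20. Smaller rises were seen in the zinc-finger factor Klf6 (1.45-fold), Zfp36 (1.45-fold), Zfp36l1 (1.32-fold) and Ier2 (1.29-fold). Ier3, at 2.72-fold, did not pass the edgeR test (adjusted p = 0.0866), and it was among the lowest genes of the set. Ier5, an early serum-response gene, and Btg2, an antiproliferative gene, showed log2 differences of 0.00 (0.001, SE 0.07) and -0.06 (SE 0.07) and were not called.

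**Figure D2:**
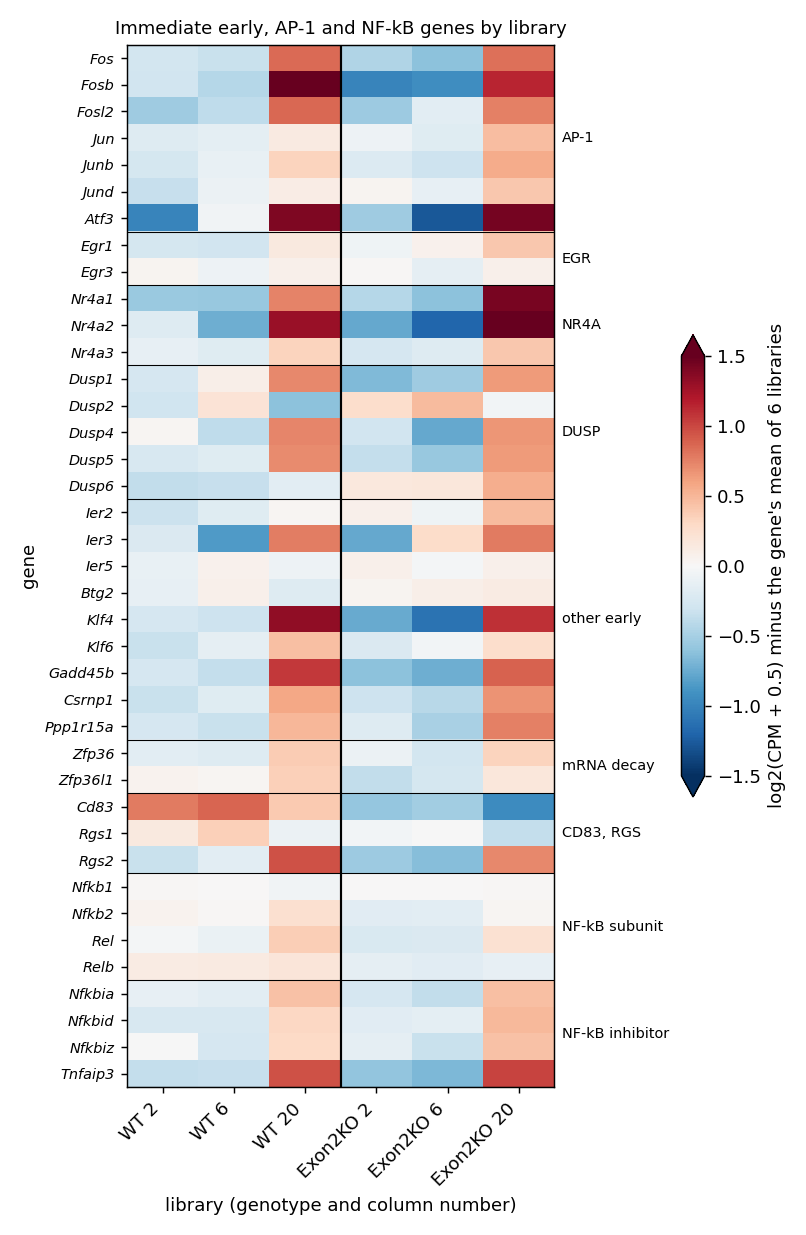
Colour gives log2(CPM + 0.5) of each of the 39 tested genes (rows, by role) in each library (columns) minus that gene's mean over the 6 libraries; red is higher and blue lower. The columns WT 20 and Exon2KO 20 are red for most rows in both genotypes, while Cd83 is red in the 3 WT and blue in the 3 Exon2KO columns.

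As a share of each library, the 40 genes made up 0.920%, 0.951% and 1.42% of all counts for WT (numbers 2, 6 and 20), against 0.878%, 0.843% and 1.48% for Exon2KO. Markers of myeloid cells moved with the number too: their 8 genes summed to 18.4 to 26.1 CPM in the libraries numbered 2 and 6, and to 71.7 and 54.0 CPM in WT 20 and Exon2KO 20. Lyz2, S100a8 and S100a9 made up most of this and were the 3 of the 7 tested markers that were called, and 5 of the 7 were above every other library in both libraries numbered 20; none was at 0 in all libraries, and Cd14 was at 0 in 3. The 7 tested myeloid markers had a median log2 difference of 1.117 for number 20, against 0.562 over the set. In other marker lists, 3 of the 8 Treg and T cell markers were called, all with number 20 higher (median log2 difference 0.105). Among the 6 CD8 T and NK markers, 1 was called higher and 1 lower (median 0.56). Of the 6 tested erythroid and stromal markers, 2 were called lower (median -0.217). No B cell or dendritic cell marker was called (medians 0.41 and -0.334). The part of any of these cells in the result was not tested. The 11 heat shock genes, which handling can induce, had a summed level that was lowest in both libraries numbered 2 (4569.8 and 4574.6 CPM) and ran from 5818.3 to 6104.9 CPM in the other 4. Of them, 9 of 11 differed between the numbers, against 10.4% of all tested genes, 5 with number 20 above and 4 with it below the mean of 2 and 6. Hspa1b, for example, was lower in number 20 (log2 -1.03, edgeR adjusted p = 3.684e-06). The part of handling in the difference of number 20 was not tested.

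The promoters of 3 genes that were higher in the libraries numbered 20 are shown, since they belong to the Fos family and to the NF-kB inhibitors, in which most genes moved together. Each is the stretch of 250 bases before the transcription start, read on the gene's strand from the RefSeq table (GRCm38.p6). Capitals mark matches to any of the motifs searched: the kB box (NF-kB), the EGR site (GCGNGGGCG) and the TATA box letters (TATAAA) occur here, and the CArG box, the full CRE (TGACGTCA) and the AP-1 site (TGANTCA) do not.
Fos, chr12:85473640-85473889, plus strand: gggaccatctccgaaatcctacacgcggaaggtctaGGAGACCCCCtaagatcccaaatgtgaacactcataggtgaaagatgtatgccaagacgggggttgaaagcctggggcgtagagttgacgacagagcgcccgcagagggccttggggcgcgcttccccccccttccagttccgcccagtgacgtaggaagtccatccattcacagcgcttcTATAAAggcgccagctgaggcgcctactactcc
Fosb, chr7:19310046-19310295, minus strand: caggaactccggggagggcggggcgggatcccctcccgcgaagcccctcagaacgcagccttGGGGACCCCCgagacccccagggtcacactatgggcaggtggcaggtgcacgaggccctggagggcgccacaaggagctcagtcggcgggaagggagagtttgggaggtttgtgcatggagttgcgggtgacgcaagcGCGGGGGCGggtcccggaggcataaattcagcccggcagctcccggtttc
Nfkbia, chr12:55492648-55492897, minus strand: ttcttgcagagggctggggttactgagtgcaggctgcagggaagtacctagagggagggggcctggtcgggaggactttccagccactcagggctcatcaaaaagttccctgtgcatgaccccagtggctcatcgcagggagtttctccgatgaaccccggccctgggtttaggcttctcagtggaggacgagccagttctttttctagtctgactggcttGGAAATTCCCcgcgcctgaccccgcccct
Windows from 250 bases before to 50 after the start were found for 31 of the 40 genes and for 9893 tested genes, and both strands were searched. A kB box was present in 10 of the 31 windows (32.3%) against 10.2% of all windows, an EGR site also in 10 (32.3% against 10.1%), and the letters TATAAA in 8 (25.8% against 7.03%). On either strand, these letters began at -33 and -29 from the start in Fos and Zfp36l1, near where a TATA box lies. In Gadd45b they began at -46. They began farther upstream in Nr4a2 and Tnfaip3 (-164 and -225), and at or after the start in Junb, Nfkbia and Ppp1r15a. A full CRE occurred in 3 (Btg2, Dusp1 and Ppp1r15a; 9.68% against 3.26%), a CArG box in 2 (Dusp5 and Zfp36; 6.45% against 1.32%) and an AP-1 site in 2 (Tnfaip3 and Zfp36l1; 6.45% against 4.68%). A match describes these letters and does not show binding. The tested genes of the set were also compact: 24 of 39 (61.5%) spanned under 10000 bases of genome, against 36.7% of all tested genes, and the median span was 6947 against 16916 bases.

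Between the genotypes, the number of genes of the set that differed depended on the block. Few were called without it, whereas 15 of the 39 were called with it, against 9.72% of all tested genes, as described further below. In the edgeR fit over all 6 libraries without the block, Cd83 fell and Dusp6 rose in Exon2KO, 2 of 39 genes against 2.33% of all tested genes. That is 1 of 39 called lower, where 1.58% of all tested genes were, and 1 of 39 called higher, where 0.757% were. The median log2 fold change was -0.02 (-0.023) over the set and 0.01 (0.008) over all tested genes, with 15 genes positive and 24 negative. The median of the set moved with every single library left out: it was -0.182, -0.159 and 0.252 without WT 2, 6 and 20, and 0.074, 0.10 and -0.305 without Exon2KO 2, 6 and 20. Without both libraries numbered 20 it was -0.093. The authors' deposited table likewise lists Cd83 and Dusp6, and no other gene of the set, with an adjusted p under 0.05.

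Cd83, a surface protein of activated lymphocytes and dendritic cells that stabilises MHC class II and CD86, changed most (ENSMUSG00000015396, GRCm38 chromosome 13, 43784775 to 43803132). It had 120, 128 and 91.3 CPM in WT 2, 6 and 20, and 46.3, 48.4 and 36.0 CPM in Exon2KO 2, 6 and 20. Every Exon2KO library lay below every WT library, and the ratio was nearly the same at each number, with log2 values of -1.37, -1.40 and -1.34. Averaged over 3 libraries, WT stood at 113 ± 19.3 and Exon2KO at 43.6 ± 6.66 CPM (SD). The edgeR log2 fold change was -1.38 (-1.375) with an SE of 0.15, at an adjusted p of 0.00449. The call held when any single library was left out (adjusted p up to 0.0324), and was lost without both libraries numbered 2 (-1.38, adjusted p = 0.224) or both numbered 6 (-1.36, adjusted p = 0.0703). Dendritic and B cells also make Cd83: markers of dendritic cells summed to 7.68 to 8.36 CPM in WT and 5.28 to 5.61 CPM in Exon2KO, those of B cells to 38.5 to 44.6 and 31.6 to 34.3 CPM. By gene, without the block, 4 of the 6 B cell markers were higher and 2 lower in Exon2KO (median log2 0.059). Of the 5 tested dendritic cell markers, 1 was higher and 4 were lower (median log2 -0.479). No gene of these lists passed the edgeR test between genotypes without the block, and none was at 0 in all libraries. With the block 1 gene of each list was called lower in Exon2KO: Cd79b of B cells (-0.51, edgeR adjusted p = 0.00501), which carried much of that list's sum, and Zbtb46 of dendritic cells (-1.05, adjusted p = 0.0386). These genes and the dendritic cell gene Siglech did not overlap between genotypes, and the part of these cells in the fall of Cd83 was not tested.

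Dusp6, the cytoplasmic phosphatase of ERK and itself induced by ERK signalling, was higher in Exon2KO (ENSMUSG00000019960, GRCm38 chromosome 10, 99263231 to 99267489). Its levels were 62.4, 63.6 and 72.2 CPM in WT against 90.0, 90.6 and 118 CPM in Exon2KO libraries, so the groups did not overlap. WT averaged 66.1 ± 5.34 and Exon2KO 99.4 ± 15.7 CPM (SD over 3 libraries), for an edgeR log2 fold change of 0.59 with an SE of 0.12, at an adjusted p of 0.0347. The direction held at each number (0.53, 0.51 and 0.70). The adjusted p of Dusp6 ran from 1.05e-05 to 0.399 over the alternatives and was over 0.05 without WT 2 (0.16), without WT 6 (0.138) and without Exon2KO 2 (0.0769). It was also over 0.05 without both libraries numbered 2 (0.399), without both numbered 6 (0.194) and with limma-voom (0.0515).

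Relb, the partner of p52 in the non-canonical NF-kB pathway, was the only other gene whose groups did not overlap, so that 3 of 39 were clear of overlap, against 17.7% of all tested genes. It had 96.9, 98.1 and 101 CPM in WT against 81.0, 79.2 and 81.5 CPM in Exon2KO, the tightest replicates among these genes. Averages were 98.6 ± 2.04 and 80.6 ± 1.25 CPM (SD over 3 libraries). The log2 fold change of -0.29 (SE 0.07) missed the threshold without the block (edgeR adjusted p = 0.0642). It passed with the block (edgeR adjusted p = 0.00539). Without the block, Relb was called by DESeq2 (adjusted p = 0.0241) and not by limma-voom (adjusted p = 0.0763).

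With the number as a replicate block, 15 of the 39 genes were called, against 9.72% of all tested genes. They were 11 lower and 4 higher in Exon2KO, where 5.79% and 3.93% of all tested genes were. The sizes were modest: in the fit with the block Cd83 alone changed at least 1.5-fold. Dusp6 lay close to that limit, at log2 0.582 with the block and 1.504-fold without it. Myeloid markers were also lower in Exon2KO at each number, with sums of 22.5, 26.1 and 71.7 CPM in WT against 18.4, 19.2 and 54.0 CPM, and 1 of the 7 tested, Lyz2, was called lower with the block (-0.41 (-0.405), edgeR adjusted p = 0.0413). Erythroid and stromal markers summed to 180 to 200.3 CPM in WT and 199 to 233 CPM in Exon2KO, a sum that was higher at each number. Pecam1, which carried most of that sum and is also made by T cells, was called higher with the block (0.23, edgeR adjusted p = 0.0164). The list itself went mostly the other way: of its 6 tested genes, 1 was higher and 5 were lower in Exon2KO without the block (median log2 -0.518). Markers of CD8 T and NK cells summed to 19.4 to 22.1 CPM in WT and 21.98 to 33.2 CPM in Exon2KO. Of these 6 genes, 2 were higher and 4 lower in Exon2KO without the block. None was called by edgeR with or without the block; at an unadjusted p under 0.05 there were 0 without it and 2 with it (Klrb1c and Eomes). The part of these cells in the genotype differences was not tested. In the 3 same-numbered pairs, 15 genes were lower in Exon2KO each time and 6 were higher each time, against 20.8% and 21.5% of all tested genes, and 18 had mixed directions. The genotype difference with the block was smaller in size than the difference of number 20 for all but 6 of the 39 genes; over all 14919 tested genes it was larger in 6734. Of the genes called with the block alone and described next, none passed without it. There Dusp1 (-0.30), Dusp4 (-0.21 (-0.215)), Klf4 (-0.39), Gadd45b (-0.26) and Rgs2 (-0.29) had edgeR adjusted p-values of 0.903 to 0.954, and Dusp2 (0.45), Zfp36l1 (-0.29), Rgs1 (-0.28) and Nfkb2 (-0.20) of 0.41 to 0.556.

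Fosb was the only AP-1 gene called between genotypes, at -0.52 (SE 0.07, edgeR adjusted p = 0.000187 with the block). The log2 ratio of Exon2KO to WT was -0.71, -0.51 and -0.35 in pairs 2, 6 and 20. Without the block its groups overlapped widely (446 ± 358 against 329 ± 299 CPM, SD, n = 3 each; adjusted p = 0.938), and without both libraries numbered 20 it was called in that fit (-0.61, edgeR adjusted p = 0.00759). Leaving out these libraries gave 3 called genes of the 39 (Fosb, Dusp6 and Cd83), against 2.43% of all tested genes. Fos, with pair ratios of -0.17, -0.27 and -0.02, did not pass with the block (-0.15, SE 0.07, edgeR adjusted p = 0.194). Junb and Jun had mixed pairs.

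The phosphatases divided by direction. Dusp2 was higher in Exon2KO with the block (0.47, SE 0.07, edgeR adjusted p = 0.000405), with 364, 514 and 293 CPM in WT against 535, 623 and 436 CPM in Exon2KO. The groups overlapped, with Exon2KO 20 below WT 6, but each pair was higher in Exon2KO (0.56, 0.28 and 0.57). Dusp1, which acts on p38 and JNK, had 359, 454 and 708 CPM in WT against 271, 296 and 667 CPM in Exon2KO; it was lower with the block (-0.37, SE 0.09, edgeR adjusted p = 0.0254). Dusp1 overlaps Ergic1 on the opposite strand, and as the strand setting of the counting is not stated, its reads are uncertain; Ergic1 held 20.8% as many counts and also fell with the block (-0.43, edgeR adjusted p = 0.000273). Dusp4 had 111, 83.1 and 181 CPM in WT against 88.6, 63.1 and 171 CPM in Exon2KO (-0.26, SE 0.07, edgeR adjusted p = 0.0254). In pair 20 the log2 ratios of Dusp1 and Dusp4 were only -0.08 (-0.085) and -0.07 (-0.075). Dusp5 was lower in each pair and not called (-0.19, adjusted p = 0.129).

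Egr1 and Ier2, both early ERK target genes, rose in Exon2KO in the fit with the block. Egr1 had 171, 169 and 228 CPM in WT against 197, 216 and 273 CPM in Exon2KO (0.27, SE 0.06, edgeR adjusted p = 0.00785). Ier2 had 199, 219 and 253 CPM in WT against 261, 238 and 345 CPM in Exon2KO (0.32, SE 0.07, adjusted p = 0.00711). For both genes the WT library numbered 20 lay within the range of the Exon2KO libraries, and neither passed without the block (adjusted p = 0.598 and 0.428).

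Klf4, a zinc-finger factor linked to quiescence, fell with the block (-0.49, SE 0.10, edgeR adjusted p = 0.00703), with 26.4, 25.2 and 79.8 CPM in WT against 18.4, 14.3 and 67.9 CPM in Exon2KO. Gadd45b and Rgs2 fell by similar amounts (-0.30, SE 0.06, and -0.30 (-0.305), SE 0.07; adjusted p = 0.00524 and 0.00897 with the block). Zfp36l1, a relative of Zfp36 in mRNA decay, had 314, 307 and 388 CPM in WT against 234, 252 and 340 CPM in Exon2KO and also fell (-0.30, SE 0.06, edgeR adjusted p = 0.00669 with the block). Zfp36 itself had 508, 496 and 739 CPM in WT against 530, 466 and 712 CPM in Exon2KO, and its difference was -0.03 (SE 0.06). Rgs1 fell with the block too (-0.27, SE 0.06, adjusted p = 0.00796), so that all 3 genes of the group of surface and G-protein regulators were lower in each pair.

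**Figure D3:**
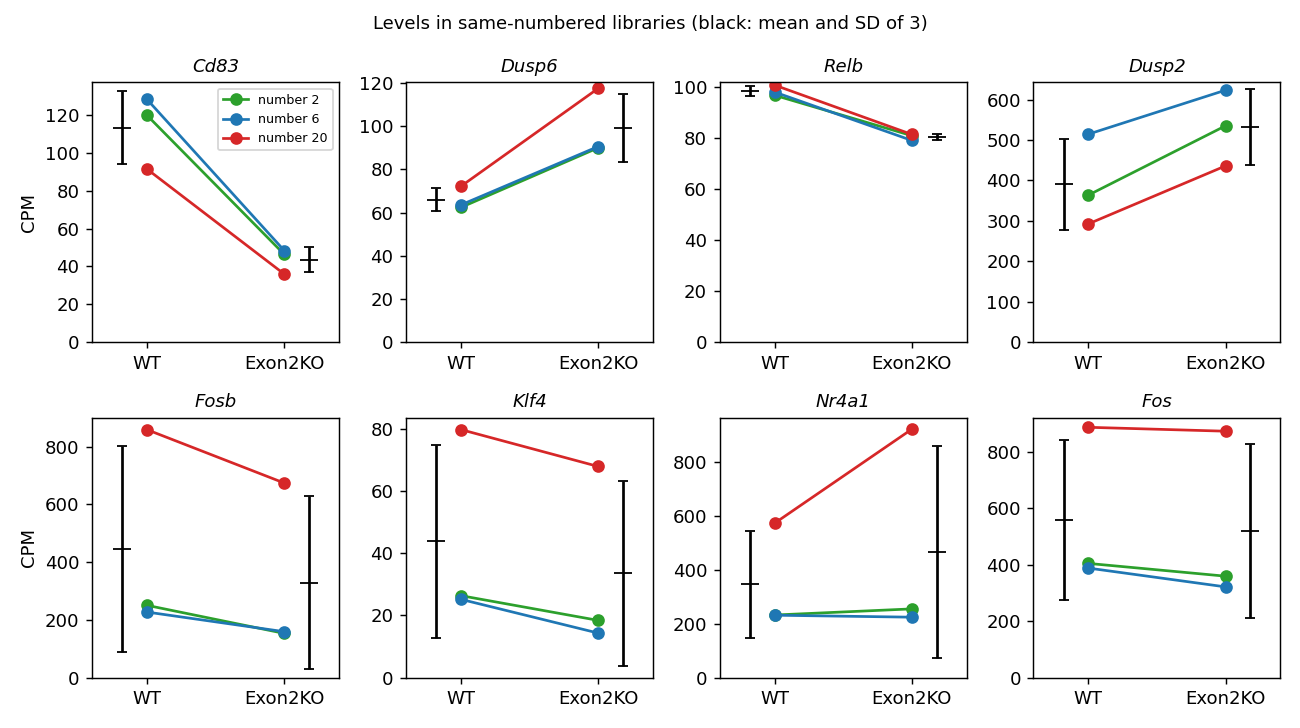
CPM (vertical axes from 0) of 8 genes in WT and Exon2KO libraries; lines join libraries of the same number, and black marks give the mean and SD of the 3 libraries of a genotype. The lines of Cd83 and Dusp6 keep the genotypes apart at each number, those of Fosb, Klf4, Nr4a1 and Fos are spread mainly by number 20, and Nr4a1 has its wide gap between genotypes only at number 20.

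Of the 4 NF-kB subunits, Nfkb2 and Relb, the pair of the non-canonical arm, were called between genotypes with the block. Nfkb2, which encodes p100 and its product p52, had 185, 181 and 211 CPM in WT against 159, 160 and 182 CPM in Exon2KO, with the block -0.20 (SE 0.06, edgeR adjusted p = 0.0377). It overlaps Psd on the opposite strand, which held 29.2% as many counts and was not called (-0.17, adjusted p = 0.22), so its reads are uncertain. Nfkb1, the source of p50, had 572, 566 and 543 CPM in WT against 568, 566 and 573 CPM in Exon2KO, a difference of 0.02 (SE 0.06) with the block. Rel was lower in each pair (-0.20, -0.12 and -0.14 on the log2 scale) and not called (-0.15, SE 0.06, adjusted p = 0.119). None of the 4 inhibitors was called by edgeR with or without the block. None had an unadjusted p under 0.05 without the block, and 1 did with it (Tnfaip3, unadjusted p = 0.0481). Nfkbia had 561, 547 and 825 CPM in WT against 513, 472 and 835 CPM in Exon2KO, with a difference of -0.11 (SE 0.07) with the block. Tnfaip3, Nfkbia and Nfkbiz had ratios below 0 in pairs 2 and 6 and above 0 in pair 20 (0.06, 0.02 and 0.15), as did Nr4a2 and Nr4a3; Nr4a1 was 0.13, -0.05 and 0.69 in the 3 pairs. In all, pair 20 went against both other pairs for 6 of the 39 genes (15.4%), against 18.8% of all tested genes. The pair 20 ratio was above both other ratios for 26 of the 39 genes (66.7%), against 34.8% of all tested genes.

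**Figure D4:**
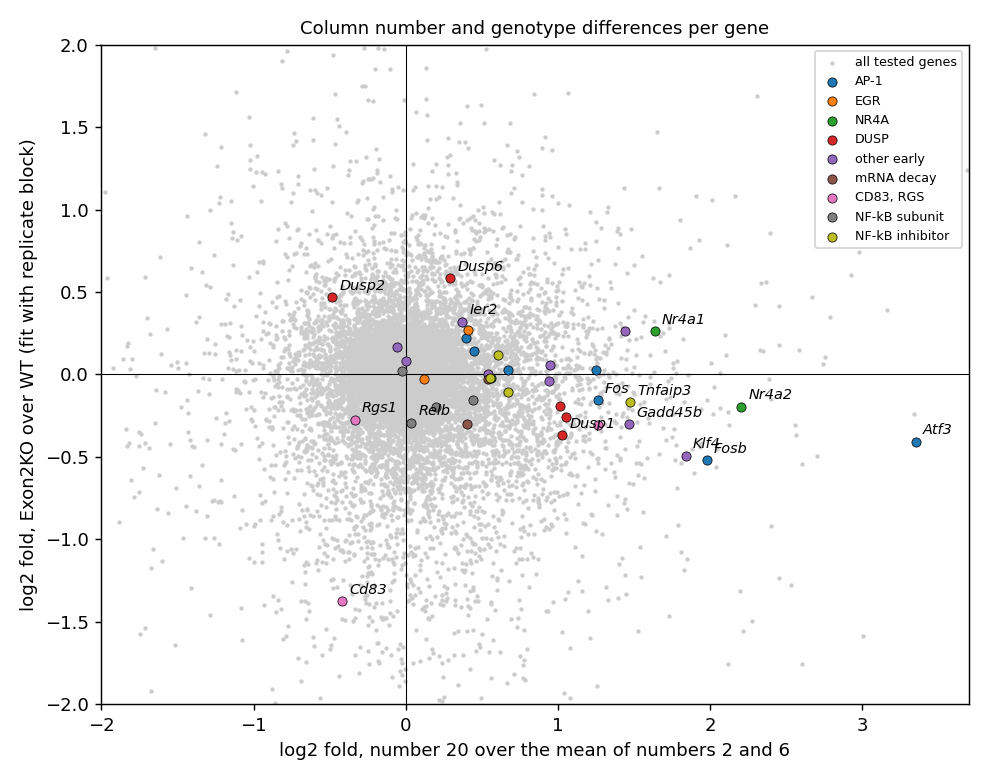
Each coloured point is a gene of the set, by role, and each grey point another tested gene; the horizontal axis is the log2 difference of number 20 from the mean of 2 and 6, the vertical axis that of Exon2KO from WT with the replicate block. Most coloured points lie to the right of 0 and near 0 on the vertical axis, with Cd83 low and Dusp6 and Dusp2 high; 119 tested genes lie outside the axes.

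Of 99 further genes of these pathways, 92 were tested: other bZIP factors, MAP kinase cascade and SRF genes, other feedback genes, NF-kB activators, NF-kB targets, and calcineurin and NFAT genes. Without the block 1 was called higher and 3 lower in Exon2KO, with a median log2 fold change of 0.04 (0.045). All tested genes had 0.757% called higher and 1.58% lower. With the block 11 of the 92 were called higher and 9 lower, where all tested genes had 3.93% and 5.79%. Between the numbers 14 of the 92 were called, 6 with number 20 higher and 8 with it lower, and the median difference of number 20 was 0.02 (0.017). All tested genes had 10.4% called for the number; the difference from the set itself was not tested.

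Bcl2l1, the NF-kB target that encodes the survival protein Bcl-xL, fell from 52.1 ± 5.14 to 33.1 ± 1.19 CPM (SD, n = 3 each; log2 -0.65, SE 0.10, edgeR adjusted p = 0.00915). Icam1, a ligand of the integrin LFA-1, fell from 89.9 ± 4.44 to 65.3 ± 5.56 CPM (-0.46, SE 0.09, adjusted p = 0.0268). Batf, a bZIP factor that pairs with Jun proteins and supports effector Tregs, fell from 78.5 ± 8.77 to 52.5 ± 8.0 CPM (-0.58, SE 0.12, adjusted p = 0.0459). Dusp10, a phosphatase of p38 and JNK, rose from 32.8 ± 5.97 to 50.4 ± 3.16 CPM (0.62, SE 0.13, adjusted p = 0.044). With the block, Bach2, a bZIP repressor of effector programmes, rose (0.49), as did Map3k14, the NIK kinase of the non-canonical pathway (0.34), Traf6 (0.25), Rcan3 (0.23), Mafk (0.26) and Elk4 (0.21). In the fit without the block Mafk was 0.28 and turned to -0.05 when Exon2KO 20 was left out. Crem (-0.64), Traf1 (-0.25), Map2k3 (-0.36) and Jdp2 (-0.91) fell with the block. Of the single libraries left out, only Exon2KO 2 cost Bcl2l1 its call (edgeR adjusted p = 0.0657), which was also lost without both libraries numbered 2 (0.294) or both numbered 6 (0.0876). Icam1, Batf and Dusp10 each lost theirs in 5 of the 6 cases (highest adjusted p = 0.113, 0.199 and 0.155), and without both numbered 2 (0.426, 0.344 and 0.426) or both numbered 6 (0.106, 0.0911 and 0.299). Icam1 and Batf also lost it without both numbered 20 (0.066 and 0.185), and Batf and Dusp10 with limma-voom (0.0621 and 0.0559). The edgeR adjusted p-values of the 10 genes named with the block ran from 0.000108 to 0.0362, and all were over 0.05 without it.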

How the data were processed

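RNA of 6 Treg libraries was sequenced. Per the labels' protocols, RNA was purified on columns and libraries were built with an NEBNext kit. Per the submitters' processing notes the tools were HISAT2 2.0.5, StringTie 1.3.3b, featureCounts 1.5.0-p3 and DESeq2 1.16.1, with the build mm10 (GRCm38); strand setting and annotation are not given in the sources used here. Per the file headers, the deposited table gives whole-number counts per gene and the authors' comparison as a log2 fold change with p-values. Its 6 columns of FPKM were not used; levels are compared between genes as CPM per kilobase of the deposited gene length.

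Counts were tested with edgeR 4.0.16 (R 4.3.3): filterByExpr, TMM, robust quasi-likelihood fit, two-sided, Benjamini-Hochberg over all 14919 tested genes, with calls made below an adjusted p of 0.05. Each standard error is the absolute log2 fold change divided by the square root of F. CPM used TMM-scaled totals; ratios within a number used a prior count of 2. The number was tested with 2 degrees of freedom in an additive model with genotype. Alternatives tried were dropping the filter, requiring 10 counts per library, RLE or upper-quartile scaling, DESeq2 1.42.0, limma-voom (limma 3.58.1), the replicate block, the block with a gene length offset (lowess span 0.3), and leaving out single libraries or both of a number.

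Column names carry the genotype and a number that no sample title carries, so libraries were assigned to genotypes only. The numbers were taken to pair the libraries because each same-numbered pair deviated together with a correlation over 0.1. No label says what the numbers stand for. The p-values and SEs rest on the spread between these libraries and on variance that edgeR shares across genes. With the number in the fit, few degrees of freedom per gene remain, so the shared part weighs more. No replicate pair agreed within sampling noise (chi-square per degree of freedom 8.12 to 23.55). A count of 3, the limit that a count of 0 allows, equals 0.141 to 0.169 CPM and covers counting error only. On simulated data, the genotype fit without the block and the number fit were tested. The genotype fit with the block was not tested in this way.

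The genes and lists were chosen with earlier results of these data known. Values in every library are given for genes called between genotypes with or without the block, the 5 genes with the smallest p between numbers, and the gene with the highest level of each role (on CPM per kilobase, the design having foreseen FPKM). Values of other members, such as Nr4a2, Fosl2 and Rel, complete their role and were chosen after their values were seen. At most 15 pathway genes were named, called genes first; 1 of them is not reported here.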

Additional observations from a re-analysis of the deposited data

How the results depend on the processing

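The numbers of the sample titles are not in the columns, so the replicate block used the column number. Without the block 348 genes were called between genotypes. Dropping the filter gave 617, DESeq2 660, the replicate block 1450, the block with a gene length offset 1561, and leaving out libraries 2 to 362 (131 without WT 2, 156 without WT 6, 204 without WT 20, 86 without Exon2KO 2, 46 without both numbered 6, 2 without both numbered 2). The biological coefficient of variation was 17.3% without and 8.56% with the block.

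Of the set, 1 gene was called lower; it was 2 with DESeq2, 11 with the block and 11 with the offset, and 0 to 2 with libraries left out. The 1 gene called higher became 0 with limma-voom, 4 with the block and 4 with the offset, and 0 to 1 with libraries left out. Of the pathway genes, 3 were called lower, which became 5 without the filter, 9 with the block, 8 with the offset and 0 to 4 with libraries left out; 1 was called higher, which became 2 without the filter, 3 with DESeq2, 0 with limma-voom, 11 with the block, 13 with the offset and 0 to 1 with libraries left out. With libraries left out, the median of the set ran from -0.305 to 0.252 and that of the pathway genes from 0.012 to 0.042, against main values of -0.023 and 0.045. Between the numbers, 1559 genes were called, 2530 without the filter and 213 to 1452 with both libraries of a number left out (522 without number 2); of the set 30 were called, and 1 to 33 with such libraries left out. The counts of 15 and 6 genes with 1 direction in all 3 pairs held with prior counts of 0.5 and 5.

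With libraries left out, the sign of the log2 fold change turned for Fos (-0.723 to 0.385), Fosb (-1.517 to 0.46), Junb (-0.273 to 0.252), Nr4a1 (-0.533 to 1.008), Dusp1 (-0.844 to 0.016), Dusp4 (-0.725 to 0.15), Klf4 (-1.428 to 0.377), Gadd45b (-0.99 to 0.351), Zfp36 (-0.226 to 0.181), Rgs2 (-0.877 to 0.238), Nfkb1 (-0.006 to 0.038), Nfkbia (-0.393 to 0.13), Tnfaip3 (-0.861 to 0.492) and the pathway gene Mafk (-0.053 to 0.491). Leaving out any single library leaves the numbers unequal between the genotypes. Junb (-0.077) and Nfkb1 (-0.006) turned without both libraries numbered 20, where the numbers stay equal. The cause of the turns was not tested. Nfkb1 also turned with the length offset (-0.014). Egr1, Dusp2, Dusp6, Ier2, Zfp36l1, Cd83, Rgs1, Nfkb2 and Relb kept their direction under the 17 alternatives run. Over all tested genes the median was 0.0084 under TMM; RLE scaling moved it to 0.0095, upper-quartile scaling to -0.0068.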

Other observations

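Among the NF-kB targets of the pathway lists, the chemokines Ccl3 and Ccl4, which attract other leukocytes, were high in Exon2KO 6 alone, a pair chosen after their values were seen. Ccl3 had 11.1 CPM (217 counts) in that library and 0.388 to 0.703 CPM in the other 5, and Ccl4 had 12.0 CPM (234 counts) there and 2 to 23 counts elsewhere, up to 1.08 CPM. Neither passed the edgeR test between genotypes (adjusted p = 0.546 and 0.725). Tnf, another early target of the same pathway, was 47.8 CPM in Exon2KO 6 and 40.5 to 57.5 CPM in the other libraries.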
